A study of Mus musculus with 27 samples.

Results

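Ventricles of mice at postnatal day 60 were compared at 7 and at 14 days after knockout of MBNL1, to find which early changes in RNA level faded, persisted or grew. The 16 libraries of that age, of 27 in the series, were used. They fall into 5 libraries with MBNL1 loss of function, labelled KO, at 7 days (KO libraries 1 to 5), and their 4 controls, labelled Ctl (control libraries 1 to 4). At 14 days there were 4 KO libraries (6 to 9) and 3 controls (5 to 7). All 16 were ventricle at P60, and the labels give the controls the same days after knockout as the KO libraries. Since the age label is the same at both times, time after knockout cannot be told apart from age at knockout or at collection. The question was whether the response to the knockout, which is KO against control, differed between the times: (KO less control at 14 days) less (KO less control at 7 days). The sources used here do not give the way of induction, the promoter, the deleted part of the gene or the animals' sex. No label states that replicates are different animals, so each p-value reflects only how these samples vary, and part of that may be technical. In bulk tissue, fewer cells of a type and less RNA per cell cannot be told apart.

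MBNL1, muscleblind-like 1, binds RNA and controls splicing, stability and localisation of transcripts, and its activity in the heart rises as the muscle matures after birth. An adult ventricle that is injured or stressed typically lowers the genes of oxidative metabolism and of the adult sarcomere, raises fetal genes such as the natriuretic peptides, takes up monocytes and lays down matrix. After an acute insult the inflammatory and proliferative genes usually pass before the matrix and metabolic genes settle, so the order in which groups of genes move with time describes the state of the tissue.

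Each library held between 21929347 and 24603175 counts. The most that a count of 0 leaves possible by counting error, 3 counts, corresponded to 0.102 to 0.169 CPM (counts scaled to library size). All 12 cardiomyocyte markers were detected in every group. Their summed level was 23764 to 50079 CPM in the 7-day and 50840 to 59132 CPM in the 14-day KO libraries, against 73110 to 79414 and 75024 to 80696 CPM in the controls. Mitochondrially encoded genes took 16% ± 1.42 (SD, n = 5) of counts in the 7-day KO libraries and 18.7% ± 1.67 (n = 4) in those of 14 days. They took 26.2% ± 1.30 (n = 4) and 26.7% ± 1.73 (n = 3) in the controls. Summed counts over the whole Mbnl1 gene (ENSMUSG00000027763, chromosome 3) do not check the labels, since the deleted part is not known. Mbnl1 was at 137 ± 41.7 CPM (SD, n = 5) in the KO libraries and 135 ± 2.12 (n = 4) in the controls at 7 days. At 14 days it was at 113 ± 9.32 (n = 4) and 144 ± 8.37 (n = 3). The difference of its response between the times was -0.36 ± 0.25 (log2, SE), with an edgeR adjusted p of 0.634. Esr1, the oestrogen receptor gene, whose ligand-binding part is used in tamoxifen-inducible recombinases, separated the groups fully. The controls held 0.437 to 1.36 CPM of Esr1. KO libraries 1 to 5 held 208, 1671, 575, 1465 and 173 CPM, and those of 14 days held 1474 to 1749 CPM. Whatever raised Esr1 counts and the loss of MBNL1 cannot be told apart in these groups.

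KO libraries 1 and 5 stood apart from the other KO libraries, and the counts, medians and calls below that moved most without them are also given without them. On the second principal component, with 12.6% of the variance, they scored 42.1 and 45.8, and the other 7 KO libraries scored between -26.4 and 1.51. They were also the only male KO libraries of 7 days, as read from Xist and Y-linked genes, and libraries 2, 3 and 4 were female. At 14 days KO libraries 6 and 7 were male and 8 and 9 female. Control libraries 1, 4, 5 and 6 were male and 2, 3 and 7 female. Sex, a low Esr1 level and this position therefore cannot be told apart among the KO libraries of 7 days. The median gene had an SD of 0.25 on the log2 scale in the 7-day KO libraries and 0.16 without libraries 1 and 5. It was 0.18 in the 14-day KO libraries and 0.14 in both control groups.

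Fewer genes were called at 14 days than at 7 days, with fewer libraries, and no single gene passed the test of the difference. The quasi-likelihood test of edgeR called 8588 of 15951 genes at 7 days at an adjusted p under 0.05, or 53.8%, with 4326 higher in KO (27.1%) and 4262 lower (26.7%). At 14 days it called 5996 genes, or 37.6%, with 2968 higher (18.6%) and 3028 lower (19%). For the difference between the times it called 0 genes (0%), with 1662 genes at an unadjusted p under 0.05; limma-voom called 0 and DESeq2 147. Between the KO libraries of the 2 times it called 1878 genes (11.8%), 860 higher at 14 days (5.39%) and 1018 lower (6.38%). That contrast compares the levels of the KO libraries only, but the controls share in its estimate of the spread. With single controls left out it called 1632 (without control library 2) to 1872 genes (without control library 7). Between the controls of both times edgeR called 0 genes (0%), with 539 at an unadjusted p under 0.05, 0 in limma-voom and 24 in DESeq2. A gene described below as higher or lower at 14 than at 7 days in the KO libraries passed that comparison and not the test of the difference. Scaling by total counts in place of TMM, the trimmed mean scaling used here, put the median of all genes at 0.46 instead of 0.01 in the response at 7 days and at 0.39 instead of 0.02 at 14 days. With it the calls split into 8663 higher and 1824 lower at 7 days, 7050 and 1426 at 14 days, and 398 and 1570 between the KO libraries, so directions below are relative to the median gene.

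Most early changes persisted to 14 days, and more of the rises than of the falls had faded by then. An early change was a gene called at 7 days and at least 2-fold different there, and it was sorted by the ratio of its log2 response at 14 days to that at 7 days. It faded under 0.5, persisted from 0.5 to 1.5 and grew above 1.5. Of 3572 such genes, 770 faded (21.6%), 63 of them with a change of sign, 2690 persisted (75.3%) and 112 grew (3.14%). Among 2074 rises, 611 faded (29.5%), 1401 persisted and 62 grew, and the median ratio was 0.67. Among 1498 falls, 159 faded (10.6%), 1289 persisted and 50 grew, and the median ratio was 0.85. By the calls at 14 days, 1325 of the early rises (63.9%) and 1225 of the early falls (81.8%) passed the test in the same direction and 0 in the opposite one. A gene chosen for a large response at 1 time tends to be smaller at the other, so the count was also made with the times exchanged. Of 2407 genes called and at least 2-fold at 14 days, 238 were less than 0.5 times as large at 7 days (9.89%), and the median ratio was 1.0. Without KO libraries 1 and 5, 484 of 2983 early changes faded, 345 of 1753 rises with a median ratio of 0.76 and 139 of 1230 falls with 0.93.

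**Figure D1:**
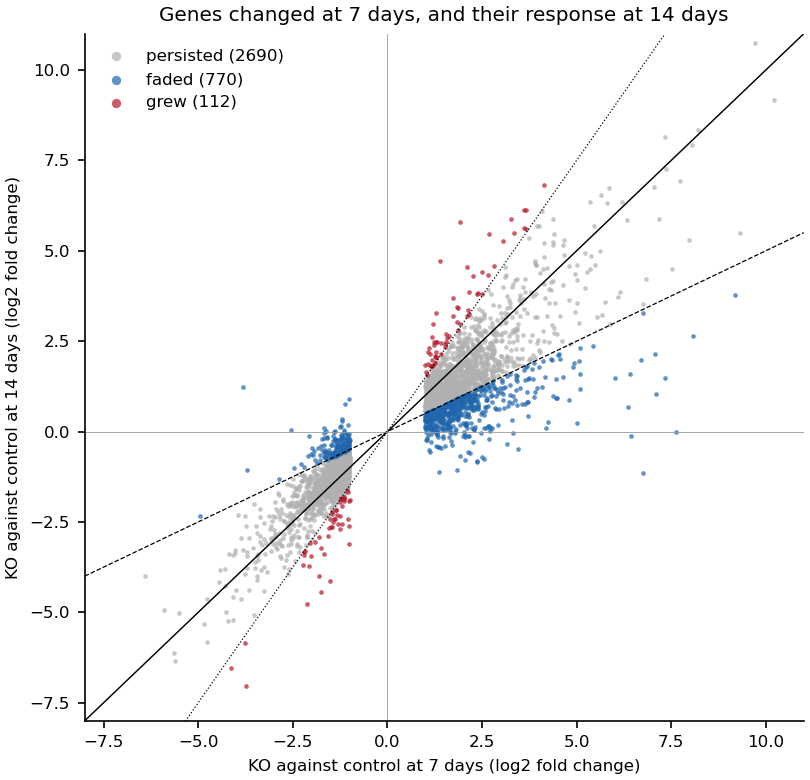
Response at 14 days (y axis) against response at 7 days (x axis), both log2 KO over control, for the 3572 early changes, coloured by whether the change faded (770), persisted (2690) or grew (112); lines mark equal responses and ratios of 0.5 and 1.5. Most points lie between the line of equal responses and the line of 0.5, and 611 of the 770 that faded are rises, on the right.

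Genes of monocytes, macrophages and chemokine signalling rose early and receded. These are genes of blood-borne phagocytes that enter injured tissue, of resident macrophages and of the small proteins that attract them. Of 22 macrophage and monocyte markers, 18 were higher and 1 lower at 7 days, and 13 higher and 1 lower at 14 days. In the KO libraries 13 were lower at 14 than at 7 days and 0 higher. Their median response went from 1.63 to 0.91 on the log2 scale, and 20 of the 22 differences were negative. The median difference was -0.81, and -0.42 without KO libraries 1 and 5. Over all genes the medians were 0.01 and 0.02. The KO libraries' median deviation from their controls was 1.23 to 1.77 at 7 days and 0.63 to 1.13 at 14 days, with no overlap. This was not particular to them. The nuclear respiratory chain, citric acid cycle, contractile, erythroid and B cell lists also did not overlap between the times. For the macrophage and monocyte markers the calls between the KO libraries numbered 10 to 17 as each library was left out. Their summed level was 1414 to 2211 CPM in the 7-day and 896 to 1335 CPM in the 14-day KO libraries. It was 593 to 712 and 479 to 758 CPM in the controls. Among 24 chemokines and receptors, 20 were higher at 7 days and 10 at 14 days, and 2 were lower at each, with median responses of 2.20 and 0.98. Between the KO groups 10 were lower at 14 days and 0 higher, or 5 lower without KO libraries 1 and 5, where the median difference was -0.59 in place of -1.12. By library the chemokine list overlapped between the times. Its median deviation from the controls was 0.54 to 1.57 in the 7-day and 0.31 to 0.74 in the 14-day KO libraries.

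Trem2, a lipid-sensing receptor of tissue macrophages, stood at 17.8, 14.2, 28, 14.8 and 18.5 CPM in KO libraries 1 to 5 and at 8.81, 8.52, 9.18 and 7.01 CPM in KO libraries 6 to 9. Its controls held 1.35 to 2.22 CPM at 7 days and 2.14 to 2.54 CPM at 14 days. Every KO library of 14 days was below every one of 7 days and above every control, so the rise of Trem2 receded without ending. The response was 3.47 ± 0.22 at 7 days and 1.85 ± 0.23 at 14 days (log2, SE). The KO libraries differed by -1.15 ± 0.18 between the times (edgeR adjusted p = 0.00118), and the difference of the responses was -1.61 ± 0.31 (adjusted p = 0.152). Ccr2, the receptor through which monocytes follow CCL2, was at 28.9, 10.2, 34.6, 17.5 and 37.7 CPM in KO libraries 1 to 5. It was at 4.77, 4.92, 4.39 and 3.77 CPM in libraries 6 to 9 and at 0.70 to 1.53 in all controls. It fell between the times by 2.53 on the log2 scale in the KO libraries (edgeR adjusted p = 0.000457) and kept a response of 2.14 ± 0.42. Ccl2 itself, a chemokine that draws monocytes, was uneven at 7 days, with 16.8, 0.955, 8.36, 2.36 and 16.2 CPM in KO libraries 1 to 5. Libraries 6 to 9 held 0.597 to 1.98 CPM of Ccl2. Between the KO groups it differed by -2.83 (log2; edgeR adjusted p = 0.016), and by -1.64 without KO libraries 1 and 5 (0.0955).

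The genes below had the smallest p of the difference among those called higher at 7 days with a smaller response at 14 days. Fermt3, the kindlin that activates integrins in blood cells, was at 36.4, 26.2, 30.7, 24.0 and 36.9 CPM in KO libraries 1 to 5 and at 14.9, 13.9, 13.9 and 12.5 CPM in libraries 6 to 9. Its controls held 10.1 to 10.4 CPM at 7 days and 7.56 to 9.49 CPM at 14 days. The 4 groups did not overlap, both control groups lay below both KO groups, and the response went from 1.59 ± 0.13 to 0.70 ± 0.15. Myo1f, a myosin of immune cells, fell from 14.2 ± 3.71 CPM (SD, n = 5) to 5.08 ± 0.995 (n = 4) between the KO groups (edgeR adjusted p = 0.000457). The controls were at 3.72 ± 0.224 and 3.69 ± 0.351 CPM, and the response of Myo1f at 14 days, 0.46 ± 0.21, did not pass the test (edgeR adjusted p = 0.0998). Nrros, which anchors latent TGF-beta on myeloid cells, went from a response of 1.39 ± 0.14 to 0.30 ± 0.16, the latter with an edgeR adjusted p of 0.151. Dock8, a guanine exchange factor of migrating leukocytes, changed sign. It was higher in KO at 7 days by 0.32 ± 0.13 (edgeR adjusted p = 0.0442) and lower at 14 days, by -0.59 ± 0.15 (adjusted p = 0.0041). It was under 2-fold at 7 days and so not an early change, and without KO libraries 1 and 5 its 7-day response was 0.22 (edgeR adjusted p = 0.19). Efs, an adaptor of Src kinase signalling, had the smallest p of them, with 9.19 to 13 CPM in the 7-day and 6.35 to 7.94 CPM in the 14-day KO libraries. Its controls went from 3.37 ± 0.203 to 5.02 ± 0.64 CPM, and the difference was -1.22 ± 0.19 (edgeR adjusted p = 0.0693).

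**Figure D2:**
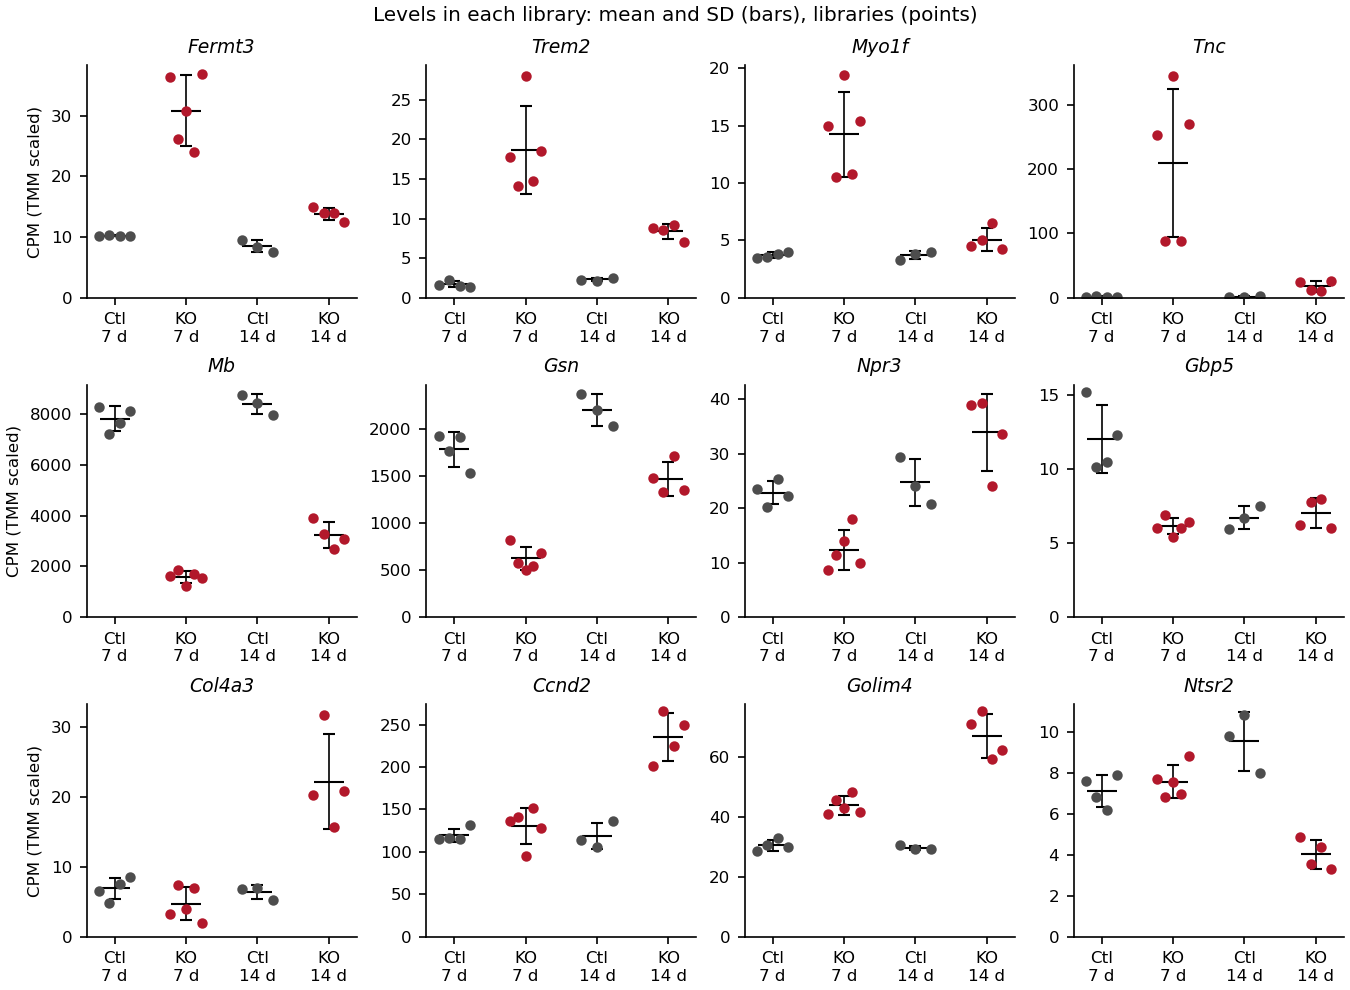
Level of 12 genes in CPM after TMM scaling (y axis of each panel) in the 4 groups (x axis: controls and KO libraries at 7 and 14 days); points are libraries, bars the group mean and SD. Fermt3, Trem2, Myo1f and Tnc fall between the KO groups, Mb, Gsn and Npr3 return toward the controls, and Gbp5 is highest in the 7-day controls. Col4a3, Ccnd2 and Golim4 are highest in the 14-day KO libraries, where Ntsr2 is lowest.

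Matrix genes stayed high as a group, while Tnc, one of its members, fell steeply between the KO groups. Of 19 collagens, 19 were higher at 7 days and 18 at 14 days, with median responses of 2.34 and 2.12. Between the KO groups 4 were lower at 14 days and 0 higher, or 9 lower without KO libraries 1 and 5, where the median difference was -0.60 in place of -0.18. Of 41 matricellular and matrix modifying genes, 33 were higher at each time, and the KO libraries differed in both directions, with 6 higher and 10 lower at 14 days (15 lower without KO libraries 1 and 5). Of the 33 early changes among them 4 faded, 28 persisted and 1 grew. Tnc, tenascin C, a glycoprotein of newly formed matrix, was at 254, 88.9, 344, 88.7 and 271 CPM in KO libraries 1 to 5 and at 24.2, 11.8, 9.84 and 25.6 in libraries 6 to 9. All controls held 0.993 to 2.98 CPM of Tnc. It was lower by 3.55 ± 0.45 on the log2 scale (SE) in the 14-day KO libraries (edgeR adjusted p = 0.000504), with no overlap, and still 3.53 ± 0.59 above the controls. Spp1, osteopontin, had 82.0, 99.0 and 63.7 CPM in KO libraries 1, 3 and 5 but 7.20 and 12.7 in libraries 2 and 4. At 14 days it was at 3.24 to 4.34 CPM, nearer to libraries 2 and 4 than to the other 7-day libraries. Aldh1a2, which makes retinoic acid in activated epicardial and mesenchymal cells, showed the same uneven start, with 138, 22.8, 66.8, 20.8 and 132 CPM in KO libraries 1 to 5 and 7.08 to 10.04 at 14 days. Col12a1, a fibril-associated collagen, changed less: its response was 5.01 ± 0.22 at 7 days and 4.20 ± 0.25 at 14 days. Col1a1, the main fibrillar collagen chain, was 1762 ± 662 CPM (SD, n = 5) and then 889 ± 181 (n = 4) in the KO groups (edgeR adjusted p = 0.0261).

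Other matrix genes moved the opposite way. Comp, a cartilage matrix protein also made by matrix fibroblasts, was at 4.63, 32.9, 13.6, 31.8 and 6.13 CPM in KO libraries 1 to 5 and at 58.1, 61.8, 121 and 68.4 CPM in libraries 6 to 9. Its controls held 5.71 to 14 CPM, so the 7-day KO libraries lay on both sides of them and those of 14 days above. It was higher by 2.12 ± 0.47 (log2, SE) in the 14-day KO libraries (edgeR adjusted p = 0.0097). Its response was 1.04 ± 0.50 at 7 days (edgeR adjusted p = 0.0859) and 2.88 ± 0.59 at 14 days (0.00116), and their difference was 1.84 ± 0.74 (0.407). Without KO libraries 1 and 5 the 7-day response of Comp passed, at 1.60 (edgeR adjusted p = 0.00108). Itgbl1, an integrin-beta-like secreted protein of fibroblasts, went from 30.1 ± 17.1 CPM (SD, n = 5) to 72.7 ± 15 (n = 4; edgeR adjusted p = 0.0257). That rise of 1.27 (log2) was 0.80 without KO libraries 1 and 5. Fbln1, fibulin 1, an elastic fibre component, was 82.4 ± 45.5 CPM and then 237 ± 66.3 in the KO groups (edgeR adjusted p = 0.00481), around control levels of 127 ± 17.8 and 140 ± 8.92. Of 14 fibroblast markers, 8 were higher and 1 lower than in the controls at each time. Their summed level was 3272 to 6683 CPM in the 7-day and 4981 to 5846 CPM in the 14-day KO libraries, against 2834 to 4045 in the controls.

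Cell cycle genes were higher in KO at 7 days and had smaller median responses at 14 days, and how many passed at 14 days depended on single libraries. Of 40 mitosis genes, 39 were higher and 1 lower at 7 days and 28 higher and 1 lower at 14 days. The 28 became 39 without KO library 8, 16 without library 6, 7 without library 9, and 8 without control library 5 or 6. The differences were negative in 39 of 40, and the median response went from 2.21 to 1.38. The 7 members called lower in the KO libraries at 14 days depended on single libraries. Without KO library 9, 28 were called, 2 without library 3 or 6, and 1 without library 5 or 7 or without both 1 and 5. The median deviation of the mitosis genes from the controls was 1.41 to 2.28 in the 7-day KO libraries and 1.12, 0.91, -0.19 and 1.99 in KO libraries 6 to 9. Library 8 thus lay at the control level and library 9 within the 7-day range. Ccnb1, cyclin B1, which drives entry into mitosis, illustrates this with 3.10 to 8.40 CPM at 7 days and 2.73, 2.63, 0.811 and 6.53 CPM at 14 days. Its controls held 0.353 to 0.915 CPM, and the KO groups overlapped. Of 41 DNA replication genes, 30 were higher at 7 days and 9 at 14 days, and the median response went from 1.05 to 0.49. The 9 became 15 without KO library 8, 14 without libraries 1 and 5, 5 without control library 5, and 4 without control library 6 or KO library 9. The median difference was -0.42, and -0.13 without KO libraries 1 and 5. Between the KO groups 7 were called lower, from 0 (without KO library 6) to 17 (without library 4) as single libraries were left out and 0 without libraries 1 and 5. Cdt1, which licenses replication origins, was 8.36 ± 3.63 CPM (SD, n = 5) and then 3.51 ± 1.27 (n = 4) in the KO groups (edgeR adjusted p = 0.0343), and its response at 14 days was 0.33 ± 0.43. With KO libraries 1 and 5 left out, the KO groups of Cdt1 differed by -0.79 (edgeR adjusted p = 0.158).

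**Figure D3:**
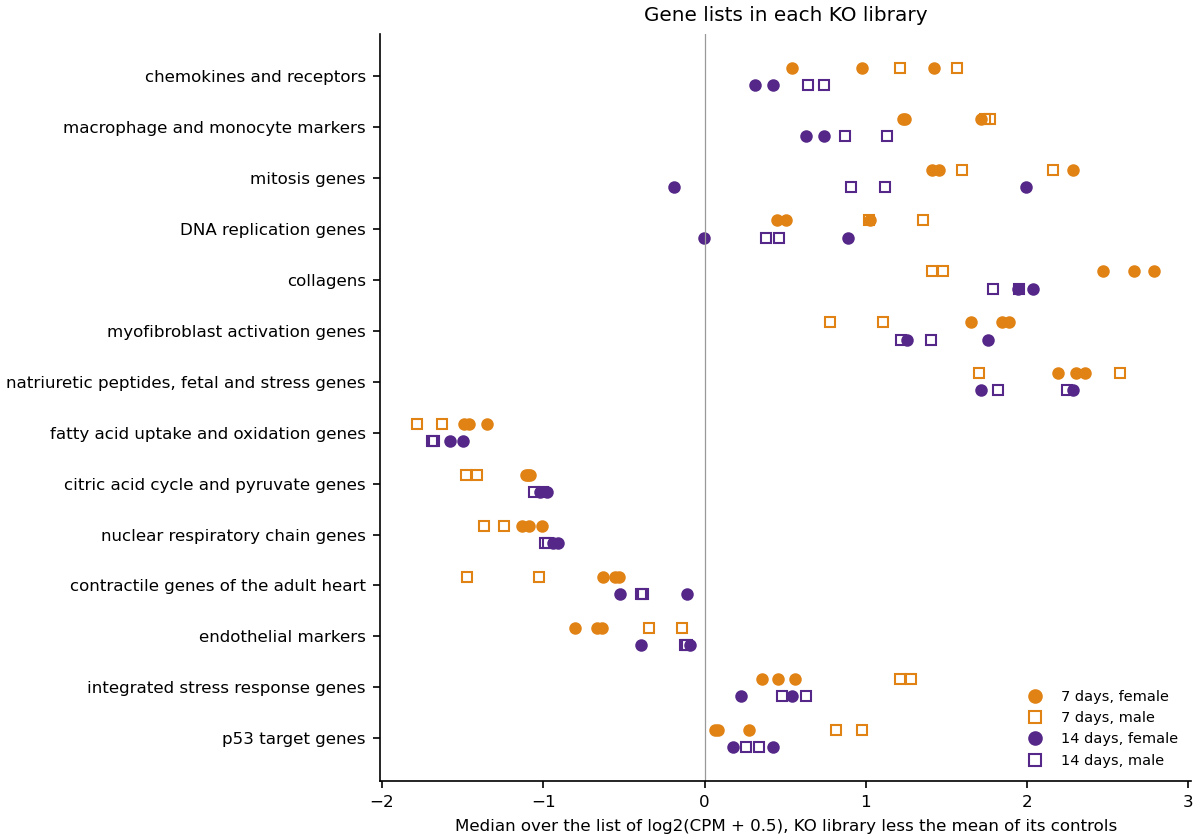
Median over the members of 14 gene lists of log2(CPM + 0.5) in each KO library less the mean of the controls of its time (x axis), with 7-day libraries in orange, 14-day libraries in purple and male libraries as squares. Macrophage markers do not overlap between the times, and neither do the citric acid cycle, respiratory chain and contractile genes. Mitosis genes spread from -0.19 to 1.99 among the 14-day libraries, and fatty acid genes stay between -1.78 and -1.35 at both times.

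Some contractile genes and Mb, low at 7 days, rose between the KO groups. Of 20 contractile genes of the adult heart, 13 were lower and 1 higher at 7 days and 7 lower and 1 higher at 14 days. In the KO libraries 7 were higher at 14 than at 7 days and 0 lower, and 18 of 20 differences were positive. Their median response went from -0.80 to -0.38, and the 7 calls became 4 to 9 as single libraries were left out (4 without KO library 1, 6 or 7). Without KO libraries 1 and 5 the median went from -0.59 to -0.38, the median difference was 0.16 in place of 0.35, and 5 members were higher and 1 lower between the KO groups. The responses depended on the scaling. With total counts 8 contractile genes were lower and 1 higher at 7 days, and 3 were lower and 3 higher at 14 days. Their median response was then -0.35 at 7 days and -0.005 at 14 days. Mb, myoglobin, the oxygen-binding protein of muscle, was at 1623, 1876, 1233, 1702 and 1543 CPM in KO libraries 1 to 5 and at 3893, 3271, 2704 and 3071 in libraries 6 to 9. Its controls held 7194 to 8280 CPM at 7 days and 7974 to 8734 CPM at 14 days. All KO libraries of 14 days were above all of 7 days and below all controls, and the rise between them was 1.02 ± 0.12 (log2, SE; edgeR adjusted p = 0.000457). The response of Mb was -2.29 ± 0.13 and then -1.37 ± 0.14, a difference of 0.92 ± 0.19 (edgeR adjusted p = 0.152). The list that holds Mb, of 15 creatine, oxygen and NAD genes, had medians of -0.98 and -0.91. In it 9 were lower at each time, and 2 were higher and 1 lower between the KO groups. Myl2, the ventricular myosin light chain, was at 2020 to 3139 CPM in the 7-day and 4517 to 5337 CPM in the 14-day KO libraries. Its response went from -1.27 ± 0.12 to -0.65 ± 0.13. Tnni3, cardiac troponin I, rose less, by 0.45 ± 0.10 (log2, SE) between the KO groups (edgeR adjusted p = 0.00923), and its response was still -1.44 ± 0.11. Ttn, titin, the giant spring of the sarcomere, had responses of -0.97 ± 0.27 and then -1.30 ± 0.31, and its KO groups overlapped. Leaving out KO libraries 1 and 5, they differed by -0.87 (edgeR adjusted p = 0.0134).

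Among other recovering falls, Gsn, gelsolin, which severs actin filaments and is also abundant in fibroblasts, was at 504 to 818 CPM in the 7-day KO libraries and 1333 to 1716 CPM in those of 14 days. Its controls held 1532 to 1929 and 2028 to 2375 CPM. Its response went from -1.51 ± 0.14 to -0.58 ± 0.15, and the KO libraries rose by 1.23 ± 0.13 (edgeR adjusted p = 0.000298). The difference of its responses was 0.93 (0.152), and it passed without KO libraries 1 and 5, at 1.13 (0.0157). Tcim, a regulator of Wnt signalling, went from 19.7 ± 3.55 CPM (SD, n = 5) to 36.1 ± 4.53 (n = 4), with 60.1 ± 2.06 and 62.0 ± 3.97 in the controls. Npr3, the clearance receptor of natriuretic peptides, ended above its controls in 3 of 4 KO libraries. It was at 8.58, 11.4, 13.9, 18.0 and 9.91 CPM in KO libraries 1 to 5 and at 38.8, 39.2, 24.1 and 33.6 in libraries 6 to 9, with controls at 20.2 to 25.3 and 20.8 to 29.4 CPM. It was lower than in the controls at 7 days (-0.88 ± 0.19, edgeR adjusted p = 0.000979), and rose by 1.46 ± 0.19 between the KO groups. Its response of 0.46 ± 0.22 at 14 days did not pass the test (edgeR adjusted p = 0.11, or 0.0436 without KO libraries 1 and 5). Of 20 endothelial markers, 13 were lower and 1 higher at 7 days and 5 lower and 2 higher at 14 days. In the KO libraries 6 were higher at 14 than at 7 days, 5 to 12 with single libraries left out (12 without KO library 8, 11 without library 5) and 15 without libraries 1 and 5. Their median difference was 0.32, and 0.52 without both. Their median response of -0.45 and then -0.14 depended on the scaling: with total counts it was -0.01 and then 0.23. Vwf, von Willebrand factor, was 138 ± 26.7 CPM (SD, n = 5) and then 234 ± 23.0 (n = 4) in the KO groups (edgeR adjusted p = 0.01). Its responses were -0.08 ± 0.17 and then 0.66 ± 0.20, with an edgeR adjusted p of 0.326 for their difference.

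Genes of energy metabolism stayed low, and some of those of the respiratory chain rose between the KO groups. All 46 nuclear respiratory chain genes were lower in KO at 7 days and all 46 at 14 days, with median responses of -1.15 and -0.96. All 46 differences were positive, with a median of 0.24 (0.11 without KO libraries 1 and 5), and 19 members were higher at 14 than at 7 days in the KO libraries. As single libraries were left out the count ran from 7 (without KO library 9) to 25 (without library 2). It was 9 without library 7, 10 without library 6 and 11 without library 1, 5 or both. Ndufa1, an accessory subunit of complex I, was at 46.1 to 53.2 CPM in the 7-day and 64.9 to 80.4 CPM in the 14-day KO libraries, against 83.3 to 104 and 99.2 to 115 in the controls. Its response went from -0.88 ± 0.09 to -0.50 ± 0.10. All 24 citric acid cycle and pyruvate genes were lower at both times, with medians of -1.23 and -1.03. In the KO comparison of the times 4 were higher, or 1 without KO libraries 1 and 5, where the median difference was 0.05 in place of 0.21. Idh2, mitochondrial isocitrate dehydrogenase, was 573 ± 64.7 CPM (SD, n = 5) and then 769 ± 29.1 (n = 4), against 1800 ± 165 and 2038 ± 49.3 in the controls. Fatty acid uptake and oxidation genes stayed where they were: 30 of 32 were lower at each time, the medians were -1.57 and -1.61, and all 28 early changes among them persisted. Acot1, a cytosolic acyl-CoA thioesterase, had responses of -2.31 ± 0.32 and then -3.18 ± 0.39, and the KO groups differed by -1.11 ± 0.36 (edgeR adjusted p = 0.0547).

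Changes of nearly equal size at both times are shown by genes with the smallest difference among those called and at least 4-fold changed at each time, so their near-zero difference is a description. Dok1, an adaptor that damps kinase signalling, was at 16.5 to 20.8 CPM in the 7-day and 15.8 to 18.6 CPM in the 14-day KO libraries, against 3.04 to 3.71 in all controls. Its response was 2.45 ± 0.10 and 2.39 ± 0.12. Tnfrsf12a, the TWEAK receptor, induced in injured muscle, had responses of 2.30 ± 0.19 and 2.28 ± 0.22. Cox7a1, the heart and muscle isoform of a cytochrome oxidase subunit, was at 75.9 to 147 CPM and then 109 to 130 CPM in the KO libraries. Its controls held 431 to 509 and 438 to 556 CPM, with responses of -2.08 ± 0.15 and -2.07 ± 0.17. Without KO libraries 1 and 5 the KO groups of Cox7a1 differed by 0.41 (edgeR adjusted p = 0.0269). Rpl3l, the ribosomal protein found in striated muscle, was 35.4 ± 12.1 CPM (SD, n = 5) and then 37.3 ± 6.32 (n = 4), against 217 ± 30.5 and 224 ± 30.4. For Fstl1, a secreted glycoprotein of the follistatin family, and Ddah1, which degrades methylarginines that inhibit nitric oxide synthase, an equal mean covered unequal libraries. Fstl1 was at 412 and 414 CPM in KO libraries 1 and 5, at 728 to 815 in libraries 2, 3 and 4 and at 496 to 721 in those of 14 days. Ddah1 was at 16.4 and 17.5, at 55.2 to 60.6 and at 32.2 to 49 CPM in the same libraries. With KO libraries 1 and 5 left out, the KO groups of Ddah1 differed by -0.57 (edgeR adjusted p = 0.0163). Among male libraries alone the difference of the responses of Fstl1 was 0.74 in place of -0.02. Of 21 natriuretic peptide, fetal and stress genes, 18 were higher at each time, and all 15 early changes among them persisted. Nppa, atrial natriuretic peptide, was at 512, 2117, 1863, 2222 and 222 CPM in KO libraries 1 to 5 and at 2924 to 3675 CPM in libraries 6 to 9, against 57.5 to 102 in all controls. The KO groups of Nppa differed by 1.27 ± 0.45 (edgeR adjusted p = 0.0752), and by 0.69 without KO libraries 1 and 5 (0.00931).

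Some responses were larger at 14 days. Dio2, which activates thyroid hormone within cells and is among the early changes that grew, was at 4.66, 11.1, 8.54, 9.24 and 4.66 CPM in KO libraries 1 to 5 and at 20.1, 17.2, 22.8 and 25.4 in libraries 6 to 9. Its controls held 0.675 to 1.51 CPM. The KO groups did not overlap, and the response of Dio2 went from 2.65 ± 0.29 to 4.33 ± 0.35 (log2, SE), with 1.48 ± 0.24 between the KO groups (edgeR adjusted p = 0.00118). Without KO libraries 1 and 5 the responses of Dio2 were 2.99 and 4.33, and by their ratio the rise persisted. The next 4 genes were under 2-fold at 7 days and so not early changes. Golim4, a Golgi membrane protein, was at 41.0 to 48.5 CPM and then 59.6 to 75.4 CPM in the KO libraries, against 28.7 to 33.1 in all controls. Bcl2, which blocks mitochondrial apoptosis, was at 7.43 to 12.4 CPM and then 16.2 to 19.4 CPM, against 6.67 to 7.87 in all controls, with responses of 0.47 ± 0.13 and 1.26 ± 0.15. Nupr1, a stress-induced chromatin protein, went from 6.80 ± 2.09 CPM (SD, n = 5) to 16.9 ± 2.23 (n = 4). Edn1, the vasoconstrictor peptide endothelin 1, went from 9.29 ± 2.53 to 18.5 ± 3.62. Golim4, Bcl2, Nupr1 and Edn1 passed the test between the KO groups (edgeR adjusted p = 0.00063, 0.000896, 0.00117 and 0.0123). Among the falls, Cacna1s, the calcium channel of skeletal muscle excitation, was at 0.359 to 1.02 CPM and then 0.310 to 0.408 CPM in the KO libraries. Its controls held 9.98 to 11.5 and 11.9 to 15.6 CPM, so the larger response at 14 days (-5.22 ± 0.24 against -4.08 ± 0.20) came with higher controls and with overlapping KO groups. By the ratio of its responses this fall persisted. The falls of Fbp2 and Scn4b grew. Without KO libraries 1 and 5 the responses of Fbp2 were -2.16 and -3.04, and by their ratio that fall persisted. Fbp2, the muscle fructose bisphosphatase, was 7.58 ± 2.5 CPM and then 3.48 ± 1.24 in the KO groups (edgeR adjusted p = 0.0141). Scn4b, a sodium channel beta subunit, was 15.8 ± 7.79 and then 3.99 ± 1.56 CPM (edgeR adjusted p = 0.00487). Entpd6, a nucleotide-hydrolysing enzyme, and Bcat2, which starts branched-chain amino acid breakdown, were under 2-fold at 7 days and so not early changes. Their responses were -0.65 ± 0.09 and then -1.23 ± 0.11, and -0.61 ± 0.08 and then -1.0 ± 0.09.

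Some genes responded at 14 days without passing the test at 7 days. Col4a3 and Col4a4 encode the chains that join with COL4A5 in specialised basement membranes, and they lie head to head on chromosome 1. Their annotated starts (GENCODE M21, GRCm38), at 82586921 for Col4a3 on the forward strand and 82586849 for Col4a4 on the reverse strand, are 72 bases apart. The 300-base RefSeq window of Col4a4, chr1:82586800-82587099 on the reverse strand, therefore holds both, and it is shown because the genes moved together. Capitals mark the 71 bases between the starts. TATAAA has 0 matches on either strand, as in most windows: 13.6% of all windows in the table and 7.79% of those of genes tested hold a match.
Col4a4: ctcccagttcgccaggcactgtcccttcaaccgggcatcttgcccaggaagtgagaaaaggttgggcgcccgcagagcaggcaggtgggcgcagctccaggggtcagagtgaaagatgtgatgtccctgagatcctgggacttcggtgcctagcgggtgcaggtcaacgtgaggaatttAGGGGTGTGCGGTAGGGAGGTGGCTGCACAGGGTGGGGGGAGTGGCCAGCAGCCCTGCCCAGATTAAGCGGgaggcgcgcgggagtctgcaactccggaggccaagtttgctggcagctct

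Col4a3 was at 3.25, 7.37, 3.98, 6.95 and 2.0 CPM in KO libraries 1 to 5 and at 20.3, 31.8, 15.7 and 20.9 in libraries 6 to 9, against 4.90 to 8.56 in the 7-day and 5.27 to 7.04 in the 14-day controls. Col4a4 was at 7.20, 13.3, 6.50, 12.7 and 5.74 CPM and then at 25.2, 31.5, 20.2 and 26.0, against 9.13 to 14.0 and 9.995 to 11.6. Both genes overlapped their controls at 7 days and exceeded every other library at 14 days, and libraries 2 and 4 were the highest of the 7-day KO libraries for both. The response of Col4a3 was -0.55 ± 0.31 and then 1.80 ± 0.36 (log2, SE), and that of Col4a4 was -0.28 ± 0.23 and then 1.26 ± 0.27. Between the KO groups they rose by 2.23 ± 0.30 and 1.5 ± 0.23 (edgeR adjusted p = 0.00063 and 0.00103), and the differences of the responses had adjusted p of 0.152 and 0.153. Ccnd2, cyclin D2, which moves cells through the first gap phase, was 131 ± 21.5 CPM (SD, n = 5) and then 235 ± 28.2 (n = 4), against 120 ± 7.94 and 119 ± 15.6. Nbl1, a secreted BMP antagonist, and Gja4, the endothelial connexin of arteries, had responses of 0.16 ± 0.16 and -0.18 ± 0.13 at 7 days and of 1.15 ± 0.19 and 0.58 ± 0.14 at 14 days.

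In the opposite direction, Ntsr2, a neurotensin receptor, was at 6.82 to 8.83 CPM in the 7-day KO libraries, beside controls at 6.20 to 7.91. At 14 days it was at 3.32 to 4.86 CPM, beside controls at 8.0 to 10.8. Its difference of -1.33 ± 0.21 had the joint smallest edgeR adjusted p of all genes, 0.0693, and the controls moved by 0.42 ± 0.16 against the KO libraries' -0.91 ± 0.14. Adam11, a catalytically inactive adhesion protein, was at 40.1 and 44.3 CPM in KO libraries 1 and 5, 16.2 to 23.7 CPM in libraries 2, 3 and 4 and 10.4 to 11.6 CPM at 14 days, against 26.8 to 39.1 in all controls. Its near-zero response at 7 days, -0.14 ± 0.22, thus joined libraries above and below the controls, and among male libraries alone it was 0.54. Without KO libraries 1 and 5 it was -0.62 (edgeR adjusted p = 0.00128). Mtus1, a microtubule-associated protein, and Myrf, a membrane-bound transcription factor, had responses of 0.07 ± 0.14 and -0.28 ± 0.23 at 7 days and of -0.69 ± 0.16 and -1.52 ± 0.27 at 14 days.

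For some genes the means of the controls differed more between the times than those of the KO libraries, although no control gene passed the test. Examples were guanylate-binding and related GTPases, which interferon induces against intracellular pathogens. Their promoters often hold an element of 2 TTTC copies with any 2 bases between them (GAAA copies on the other strand). It was found in 3.44% of 32851 promoter windows of the RefSeq table and in 54.5% of the 22 windows of the interferon response genes tested, a list chosen for that response. The windows of Gbp5, chr3:142496684-142496983 on the forward strand, Gbp7, chr3:142530086-142530385 on the forward strand, and Tgtp2, chr11:49064163-49064462 on the reverse strand (RefSeq, GRCm38.p6, 300 bases each), hold 1 match each, in capitals, which begins 165, 53 and 70 bases before the start. They are shown because all 3 genes had their highest mean level in the 7-day controls.
Gbp5: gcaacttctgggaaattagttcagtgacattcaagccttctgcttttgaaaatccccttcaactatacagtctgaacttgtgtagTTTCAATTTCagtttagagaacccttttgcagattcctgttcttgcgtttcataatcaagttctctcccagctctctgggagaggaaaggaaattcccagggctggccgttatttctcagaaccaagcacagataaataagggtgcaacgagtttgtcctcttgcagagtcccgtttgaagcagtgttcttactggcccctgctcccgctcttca
Gbp7: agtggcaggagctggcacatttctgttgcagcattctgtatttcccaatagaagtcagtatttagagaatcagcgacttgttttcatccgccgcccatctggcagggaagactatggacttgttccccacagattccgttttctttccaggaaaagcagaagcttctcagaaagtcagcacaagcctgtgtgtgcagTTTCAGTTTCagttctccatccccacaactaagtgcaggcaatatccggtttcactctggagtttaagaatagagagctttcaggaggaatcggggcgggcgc
Tgtp2: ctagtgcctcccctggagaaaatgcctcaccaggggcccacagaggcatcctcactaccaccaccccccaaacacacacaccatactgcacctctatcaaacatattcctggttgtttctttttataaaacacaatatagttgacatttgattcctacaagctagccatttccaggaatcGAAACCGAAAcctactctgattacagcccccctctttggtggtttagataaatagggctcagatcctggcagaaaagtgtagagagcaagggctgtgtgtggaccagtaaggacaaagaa

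Gbp5 was at 15.2, 10.1, 10.4 and 12.3 CPM in control libraries 1 to 4 and at 5.96, 6.70 and 7.51 in libraries 5 to 7, and it stayed at 5.38 to 6.92 and 6.04 to 8.0 CPM in the KO libraries of 7 and 14 days. Its fall at 7 days (-0.96 ± 0.14, edgeR adjusted p = 2.3e-05) gave way to 0.06 ± 0.16 at 14 days. This came with a move of 0.19 ± 0.14 in the KO libraries and -0.83 ± 0.16 in the controls (edgeR adjusted p = 0.385 and 0.202). Gbp7, chosen after its values were seen, and Tgtp2 had the same order of means. In the 7-day and 14-day controls Gbp7 was at 18.6 ± 2.26 and 11.9 ± 1.01 CPM and Tgtp2 at 10.9 ± 1.37 and 5.39 ± 2.0 CPM (SD, n = 4 and 3). In the KO libraries Gbp7 was 10.6 ± 0.945 and 11.7 ± 1.80 CPM and Tgtp2 3.58 ± 0.824 and 4.84 ± 0.953 CPM. Mx1, an antiviral dynamin-like GTPase, was higher in KO, with 3.96 to 6.61 CPM in the 7-day and 0.653 to 1.60 CPM in the 14-day KO libraries. Its controls held 0.546 to 1.41 and 0.169 to 0.496 CPM. Over the 26 interferon response genes the controls had a median change of -0.60 between the times, 21 differences were positive, and 8 members were lower at 14 than at 7 days in the KO libraries. All 8 erythroid markers were lower in KO at 7 days and 0 at 14 days. Between the times the controls moved by a median of -1.03 and the KO libraries by -0.17. The summed level was 860 to 1932 and 601 to 1144 CPM in the controls and 235 to 776 and 536 to 733 CPM in the KO libraries. The part of blood content or of any other condition in these shifts was not tested.

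Split by sex as read from the counts, a difference between the times was called in the male libraries and not in the female ones. In an edgeR fit with sex in every group (8 residual degrees of freedom), added after seeing the data, the difference of the responses was called for 2425 genes in males (15.2%). Of these 1386 were positive and 1039 negative. It was called for 0 genes in females (0%; 1196 at an unadjusted p under 0.05). A test of the male less the female difference called 255 genes (1.6%), 154 positive and 101 negative. The responses of males and females differed in 2601 genes at 7 days (16.3%) and in 0 at 14 days (0%; 782 at an unadjusted p under 0.05). In fits of 1 sex alone, edgeR called the difference for 3690 genes in males and 0 in females. These counts rest on 2 male KO libraries at 7 days, numbers 1 and 5, and on 1 female control at 14 days. In those 2 KO libraries sex cannot be told apart from the low Esr1 level and the position on the second principal component. The tests of limma-voom and DESeq2 were not run on the sexes. Early rises faded in 43.7% of 2336 genes in males and in 28.5% of 1636 in females, and early falls in 38.2% of 2289 and in 16.8% of 1165.

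The gene that differed most in the positive direction was Myh7, the slow myosin heavy chain that returns in the stressed ventricle. It was at 170 and 117 CPM in male KO libraries 1 and 5, at 1183, 1520 and 1282 in female libraries 2, 3 and 4, and at 1851, 1653, 1520 and 1408 in libraries 6 to 9. Its controls held 204 to 289 and 399 to 579 CPM. In males the response of Myh7 went from -0.71 ± 0.17 to 2.06 ± 0.18 and in females from 2.20 ± 0.17 to 1.34 ± 0.23. The male less female difference was 3.63 ± 0.36 (edgeR adjusted p = 0.00111). Asb10, a muscle subunit of ubiquitin ligases, was at 5.26 and 5.57 CPM in KO libraries 1 and 5 and at 27.5 to 41.1 CPM in all other KO libraries, against 106 to 127 in the controls. Rab3a, a GTPase of secretory vesicles, was at 7.05 and 7.18 CPM against 24.5 to 36.6. In the negative direction, Prr13, a proline-rich nuclear protein, was at 201 and 244 CPM in KO libraries 1 and 5, at 47.1 to 51.0 in libraries 2, 3 and 4 and at 48.3 to 58.8 at 14 days. Its controls held 28.5 to 33.6 CPM. Its male less female difference was -2.72 ± 0.21 (edgeR adjusted p = 0.000118). Txnrd1, thioredoxin reductase, and Mgst1, a membrane glutathione transferase, both of oxidant defence, were at 221 and 279 CPM and at 92.5 and 93.7 CPM in KO libraries 1 and 5. The other KO libraries held 61.5 to 68.1 and 25.9 to 58.3 CPM. Tnfrsf1a, the main TNF receptor, was at 149 and 146 CPM there and at 69.2 to 80.0 CPM in the other KO libraries, above the 43.0 to 47.2 of the controls. These genes were chosen for this contrast after its values were seen, so they describe it and do not support it.

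**Figure D4:**
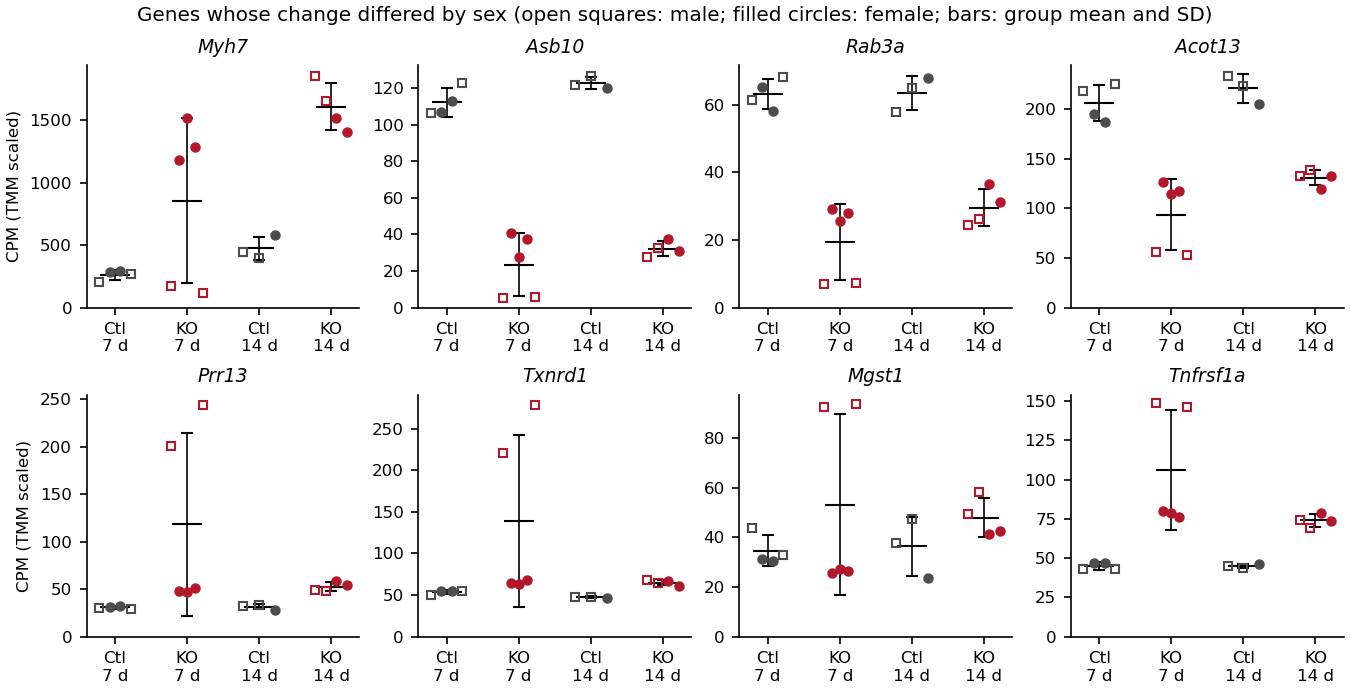
Level of 8 genes in CPM (y axis) in the 4 groups (x axis), with male libraries as open squares and female libraries as filled circles; bars are the group mean and SD. The 2 male KO libraries of 7 days lie apart from all other KO libraries in each panel, for Myh7 at 170 and 117 CPM below 1183 to 1851 CPM. Among the KO libraries of 14 days squares and circles lie closer. They overlap in some panels and not in others, as for Myh7 with 1851 and 1653 CPM in males and 1520 and 1408 CPM in females.

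Among the lists, the male and female libraries parted at 7 days for muscle, stress and collagen genes. The males there were KO libraries 1 and 5, whose sex cannot be told apart from their low Esr1 level. Median responses of the contractile genes were -1.29 at 7 days and -0.37 at 14 days in males and -0.59 and -0.28 in females. Of the 20 members, 12 had a positive difference called in males and 0 in females, and 0 passed edgeR's test of the male less female difference. The median response of the collagens went from 1.66 to 2.09 in males and from 2.62 to 1.72 in females. Over the members the median difference was 0.14 in males and -0.61 in females, with 1 female control at 14 days. The male collagens moved both ways: with males fitted alone, edgeR called 9 higher and 7 lower at 14 than at 7 days in the KO libraries. The integrated stress response genes went from 1.31 to 0.47 in males and from 0.63 to 0.64 in females, and the p53 targets from 1.16 to 0.16 and from -0.04 to 0.36. Over both sexes without KO libraries 1 and 5 their median differences were 0.02 and 0.05, in place of -0.35 and -0.20. Neutrophil markers stood at a median of 3.17 in males and 0.16 in females at 7 days. The sexes overlapped by library: the median deviation from the controls was 0.83 and 1.54 in male KO libraries 1 and 5 and 0.18, 1.05 and 0.04 in female libraries 2, 3 and 4. Their summed level was 20.2 to 218 CPM in the 7-day KO libraries and 10.8 to 16.6 CPM in those of 14 days, against 8.48 to 20.5 in the controls. Macrophage markers fell between the KO groups in both sexes, with a median change of -0.67 in males and -1.04 in females. Their median response went from 1.94 to 0.95 in males and from 1.38 to 1.09 in females. The median difference of their responses was -0.86 in males and -0.23 in females, with 1 female control at 14 days. For the 20 endothelial markers the median change between the KO groups was 0.27 in males and 0.48 in females. Their median responses went from -0.11 to -0.09 in males and from -0.70 to -0.20 in females. In edgeR's test of males less females 10 of these 20 passed for the response at 7 days, and 0 for the difference between the times.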

How the data were processed

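RNA of 16 ventricle samples was sequenced on BGI's DNBseq platform, per the labels' protocols. The deposited table holds raw counts of reads for each gene in each library. Per the submitters' processing notes, STAR, featureCounts, DESeq2, Salmon and build GRCm38 (mm10) were used, with no role or version given. Annotation, strand setting and filters are not given in the sources used here. Symbols came from GENCODE M21 (GRCm38), which lacked 346 of 55487 gene identifiers; such genes were tested but not named. Genes with near-identical copies or overlapping antisense partners are uncertain.

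The test was edgeR's (4.0.16, R 4.3.3): filterByExpr, TMM scaling, and the quasi-likelihood test in 1 fit of the 16 libraries with 4 groups, without covariates. Adjusted p (Benjamini-Hochberg, over 15951 genes) under 0.05 made a call. Log2 fold changes are ± SE, and CPM levels are TMM-scaled. Alternatives used DESeq2 1.42.0 and limma 3.58.1. The tests were tested on simulated data. Sex was read from Xist and Y-linked counts, and the fit by sex was chosen after seeing the data.

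The comparison, the 43 gene lists (902 entries, 861 genes tested) and the tests were chosen with earlier results of these data known. Named genes were Mbnl1, Mbnl2, Mbnl3 and Esr1; among genes of at least 5 CPM, the 6 with the smallest p of the difference in each of 6 classes (called higher, lower or not at 7 days, by direction of the difference); the 6 risen and 6 fallen with the smallest difference among genes called and at least 4-fold at both times; and, per list, the members with the smallest and largest difference and the largest early response. Genes of the contrast by sex, 6 per direction, were chosen after their values were seen. A gene that this rule named is not reported here. Replicates were compared by chi-square over genes with at least 20 summed counts, and the statistic per degree of freedom was 7.75 to 148, so each library counted as 1 sample. Promoter windows (250 bases before to 50 after the start) came from RefSeq GRCm38.p6.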

Additional observations from a re-analysis of the deposited data

Results flagged for a closer look

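The change from 7 to 14 days differed between male and female libraries, by edgeR's test of the male less female difference of the responses, for 12 genes named here as those with the smallest adjusted p in each direction. It was 3.63 (log2) for Myh7 (adjusted p = 0.00111), 2.62 for Abat (0.00823), 2.53 for Asb10 (0.00878), 1.74 for Rab3a (0.00878), 1.30 for Acot13 (0.0113) and 1.92 for Msh3 (0.0113). It was -2.72 for Prr13 (adjusted p = 0.000118), -2.0 for Txnrd1 (0.00284), -1.99 for Cblb (0.00618), -1.98 for Mgst1 (0.0113), -2.35 for Mal (0.0118) and -1.07 for Tnfrsf1a (0.0146). In all 12 the values of KO libraries 1 and 5, the male ones of 7 days, lay outside the range of the 3 female ones. Sex and a low Esr1 level cannot be told apart in those libraries.

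A single library lay far from the rest of its group in 11 of 242 groups tested, about the 1 in 20 that chance gives. Among the 7-day controls these were library 1 for Mbnl3 (0.437 CPM), Fstl1 (80.8 CPM), Dok1 (3.71 CPM) and Cox7a1 (509 CPM), library 3 for Snd1 (81.3 CPM), and library 4 for Ccnd2 (131 CPM). Among the KO libraries they were library 1 for Fbp2 (11.9 CPM) and library 7 for Myrf (1.98 CPM). As median deviations of a list from the controls (log2), they were -0.0107 for the cardiac transcription factors in KO library 1, -2.53 for the erythroid markers in KO library 3 and -0.39 for the endothelial markers in KO library 8.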

How the results depend on the processing

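Genes called for the difference between the times numbered 2 with total count scaling, 2 with upper quartile scaling, 13 without a filter, 2 at a mean of at least 5 CPM, 147 in DESeq2, 120 in limma-voom with library weights, 52 with all 27 libraries, 2 with sex as a covariate, 3 without KO libraries 1 and 5, 3690 in males and 0 to 21 with single libraries left out. Between the controls they were 1 without a filter, 24 in DESeq2, 73 with library weights, 3 with all libraries and 3 in males. Between the KO groups they were 2983 with all libraries, 882 in the 12 libraries with shared numbers, 7247 in males, 5 in females and 932 to 2662 with 1 left out. Females alone gave 5703 at 7 days and 2680 at 14 days.

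The number of early changes itself varied with the setting. Those that faded were 246 of 1706 at 5 CPM, 459 of 3118 with library weights and 484 of 2983 without KO libraries 1 and 5. They were 2003 of 4778 in males, 1365 of 3572 with ratio limits closer to 1, 2125 of 8588 without a fold minimum and 246 of 1062 at 4-fold. Those that persisted numbered 1443, 6068 and 784 at 5 CPM, without a fold minimum and at 4-fold, of the same totals. Those that grew were 178 of 3269 with the replicate block and 184 of 3315 in the same 12 libraries without it. They numbered 17 at 5 CPM, 211 with the closer limits, 395 without a fold minimum and 32 at 4-fold, of the totals above, and 74 to 143 with 1 library left out.

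Responses that changed sign were Mbnl2 0.0834, Dusp1 0.0205 (7 days) and Flii 0.0786 (14 days) with total counts, Mbnl1 -0.32 and mt-Co2 -1.29 (7 days) with library weights, and Ddit4l -0.79 (7 days) without KO libraries 1 and 5. In males they were Fstl1 0.74 (difference), Adam11 0.54 and Kcnj5 -0.50 (7 days), and, between the KO groups, Ddah1 1.20, Col14a1 1.52, Cdnf 0.59, Col11a1 2.08 and Cthrc1 0.70. The cause was not tested.

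Same-numbered samples showed no clear common deviation (correlations from -0.33 to 0.14 over the pairs) and were not treated as pairs. KO libraries 1 and 3 correlated best with the control of their own number, at 0.07 and 0.09. So few pairs cannot exclude a pairing. With the replicate block, edgeR called 0 genes for the difference, 7474 at 7 days and 4394 at 14 days. Contrasts between the times within KO or control libraries were not run with the block, which holds no number at both times. Depth limits genes near the floor, and 3 controls at 14 days limit the difference.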
